A study of Caenorhabditis elegans with 12 samples.

Results

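The *ttr* genes of *C. elegans* encode transthyretin-related proteins, and 58 of the 46926 features in the expression table carry a gene name that begins with *ttr-* and a number. That name was the only criterion, and no measured value entered it. All 58 are annotated as protein coding in the Ensembl annotation of WBcel235. RNA was sequenced from whole N2 worms, the wild-type laboratory strain, after feeding on the Δ*lpp* mutant of *E. coli* (6 libraries) or on BW25113 (6 libraries). BW25113 is the laboratory *E. coli* strain that carries *lpp*, and the Δ*lpp* mutant lacks this gene, which encodes the major lipoprotein joining the outer membrane to the cell wall. The worms of both groups had the same genotype and differed in the bacteria that they ate, and the study kept its worms on a high-fat nematode growth medium. The sources used here give neither the age at which worms were collected nor whether the 6 libraries of a diet came from separate cultures, so the p-values measure only the spread between these libraries.

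The transthyretin-related proteins form a large family in nematodes and take their name from a distant resemblance to transthyretin, the vertebrate carrier of thyroid hormone and of the retinol-binding protein. Most members are small and carry a signal for secretion, and the function of most of them is unknown. The best understood is TTR-52, a secreted protein that binds phosphatidylserine exposed on dying cells and also the receptor CED-1 on the engulfing cell. TTR-33 is known to protect dopaminergic neurons of the worm against oxidative stress. Both roles are background and were not measured here.

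The family is spread over every chromosome, with 22 members on chromosome V, 12 on X, 10 on IV, 9 on III, 3 on I and 2 on II. Coding length lay between 267 and 1218 bases, with a median of 429 bases or 143 codons. *ttr-14*, with 9 exons, has the longest coding sequence of 1218 bases. Of the 58 members, 29 lie within 10000 bases of another *ttr* gene, in 12 groups of neighbours. The counts of 17 members were not whole numbers in at least 1 library, as happens when reads are divided between features, and values of these members are less certain. The exons of 17 members overlap those of another gene, 13 of them on the opposite strand only, and the sources used here do not say whether the counting used strand.

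Total counts per library were 21146884 to 23563531 on Δ*lpp* and 20254430 to 24442423 on BW25113. Ribosomal RNA took 0.408% to 0.567% of the counts on Δ*lpp* and 1.24% to 2.69% on BW25113. Over all tested genes, PC1 held 83.6% of the variance and separated the diets, and on PC2 (4.22%) BW25113 replicate 1 stood at 53.1 against -23.02 to 12.3 in the other 11 libraries. The TMM factors, which scale each library so that most genes are level between libraries, were 1.08 to 1.27 on Δ*lpp* and 0.794 to 0.988 on BW25113. Scaling by library size alone moved the median log2 fold change of all genes from 0.05 to 0.50, a shift of 0.45 toward Δ*lpp*, so directions of small changes depend on the scaling. Below, CPM are read counts per gene brought to a common library total with the TMM factors, and TPM are the deposited values, which also divide by gene length and carry no TMM factor. Among the cell type markers, those of neurons, body wall muscle, pharynx and intestine were present in every library.

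The summed level of the *ttr* genes, which a few abundant members dominate, stood higher on the Δ*lpp* diet, while single members went both ways. In TPM, the level of the 58 members summed to 6736 to 8598 in the Δ*lpp* libraries, with a median of 8030. The same sum was 3307 to 4766 in the BW25113 libraries, with a median of 3691. Every Δ*lpp* library lay above every BW25113 library. The means were 7829 ± 732 (SD, n = 6) and 3822 ± 494 (SD, n = 6), a ratio of 2.05 with an SD of 0.327. The family made up 0.783% of all TPM on Δ*lpp* and 0.382% on BW25113. In CPM the sums were 2664 ± 245 and 1902 ± 134 (SD, n = 6 each), a ratio of 1.40, and the libraries again did not overlap. The difference between the diets is therefore in the same direction on both scales and smaller where the libraries were scaled by TMM. In TPM all tested genes stood toward Δ*lpp* too, with a median log2 fold change of 0.51 on log2(TPM + 1) and 0.64 on log2(TPM + 0.1).

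**Figure D1:**
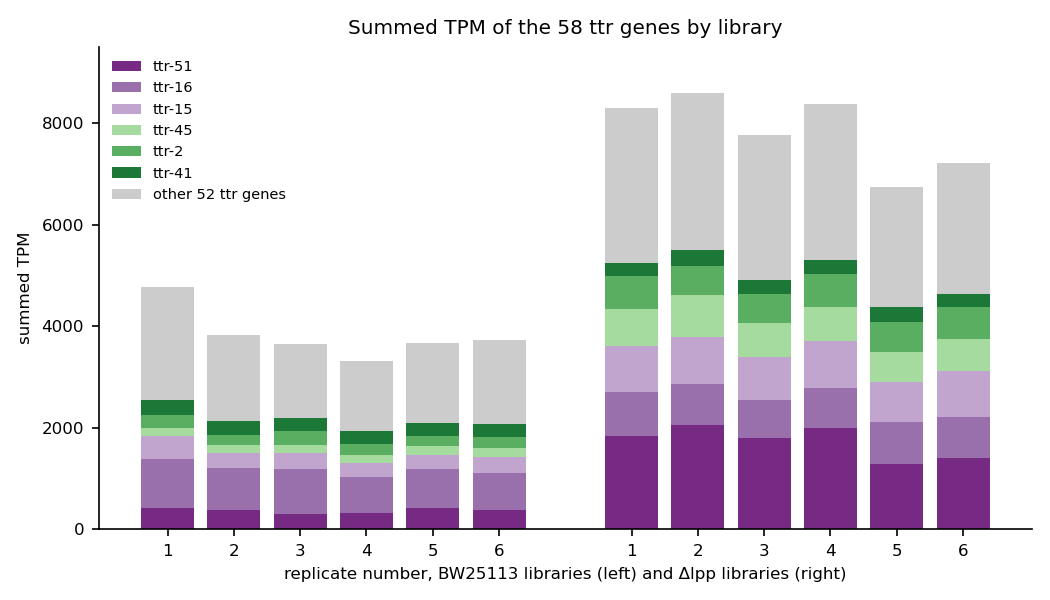
Summed TPM of the 58 *ttr* genes in each of the 12 libraries, with the 6 most abundant members in colour and the other 52 in grey. All bars of the Δ*lpp* diet reach at least 6736, and no bar of the BW25113 diet exceeds 4766.

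A few members made up most of this level. The 6 with the highest mean TPM over the 12 libraries held 61.4% of the family's TPM, 13 members were over 100 TPM, 42 were over 10 TPM and 5 were under 1 TPM, around a median of 31.8. *ttr-51* was the most abundant, at a mean of 1048 TPM or 17.99% of the family. It lay between 1284 and 2061 TPM on Δ*lpp*, with a median of 1815, and between 302 and 425 TPM on BW25113, with a median of 372. *ttr-51* alone thus covered a large part of the diet difference, and without it the ratio of the summed TPM was 1.77. Next in level came *ttr-16* with 807 TPM, *ttr-15* with 604 TPM, *ttr-45* with 426 TPM, *ttr-2* with 419 TPM and *ttr-41* with 273 TPM. *ttr-16* was the leading member on BW25113, at 810 ± 94.4 TPM (SD, n = 6), and its TPM on Δ*lpp* was 805 ± 43.3 (SD, n = 6), so the levels overlapped. The order of the leading members therefore differed between the diets, with *ttr-51* above *ttr-16* in every Δ*lpp* library and below it in every BW25113 library.

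Whether single members responded to the diet was tested in a fit across all genes. The 52 members that passed the filter on low counts entered edgeR's quasi-likelihood test together with the other genes, 15266 in all, and p-values were adjusted over all of them (Benjamini-Hochberg). A member was called when its adjusted p was under 0.05 and its fold change over 2 in either direction (a log2 fold change over 1). On the Δ*lpp* diet 10 members rose (19.2% of the 52, where 12.1% of all tested genes did) and 5 fell (9.62%, where 15.6% of all tested genes did). Calls in either direction took 27.7% of all tested genes, so 15 of 52 members is close to the background in number. Some of the 15 passed the filter only or mainly through the diet where they are high. Among the 47 members with at least 10 counts in every library, 9 were called higher (8.32% of all genes so filtered) and 2 lower (9.50%). On adjusted p alone, 24 members were higher (32.9% of all tested genes were) and 14 lower (32.3% of all tested genes were), while 14 members did not pass. The median log2 fold change of the tested members was 0.23, beside 0.05 for all genes. The middle of the distribution lay between -0.36 and 0.92 for the members and between -0.53 and 0.54 for all genes. With no filter on low counts the medians were level, at 0.10 for all 58 members and 0.11 for all genes. The libraries of the diets did not overlap in 29 members, 55.8% of those tested beside 41.5% of all genes. In 19 of them Δ*lpp* was above (17.8% of all genes) and in 10 below (23.7% of all genes), and the 15 called members were all among the 29.

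How many members passed the limit depended on the unit and scaling. With library size alone 20 members were called higher (24.4% of all genes) and 4 lower (11.4%). In limma on log2(TPM + 1), where test, unit and scaling all differ from the count fit, the calls were 21 higher (17.3% of all genes) and 4 lower (8.15%), and on log2(TPM + 0.1) 23 higher (29.9%) and 4 lower (10.4%). Upper quartile factors gave 14 higher (14.0% of all genes) and 5 lower (14.4%). Without TMM the libraries did not overlap with Δ*lpp* above in 23 members (38.8% of all genes) and with Δ*lpp* below in 4 (14.9%). The 10 members called higher were also called higher under each of these settings, and of the 5 called lower *ttr-40* alone was not called with library size alone or on the TPM scales.

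**Figure D2:**
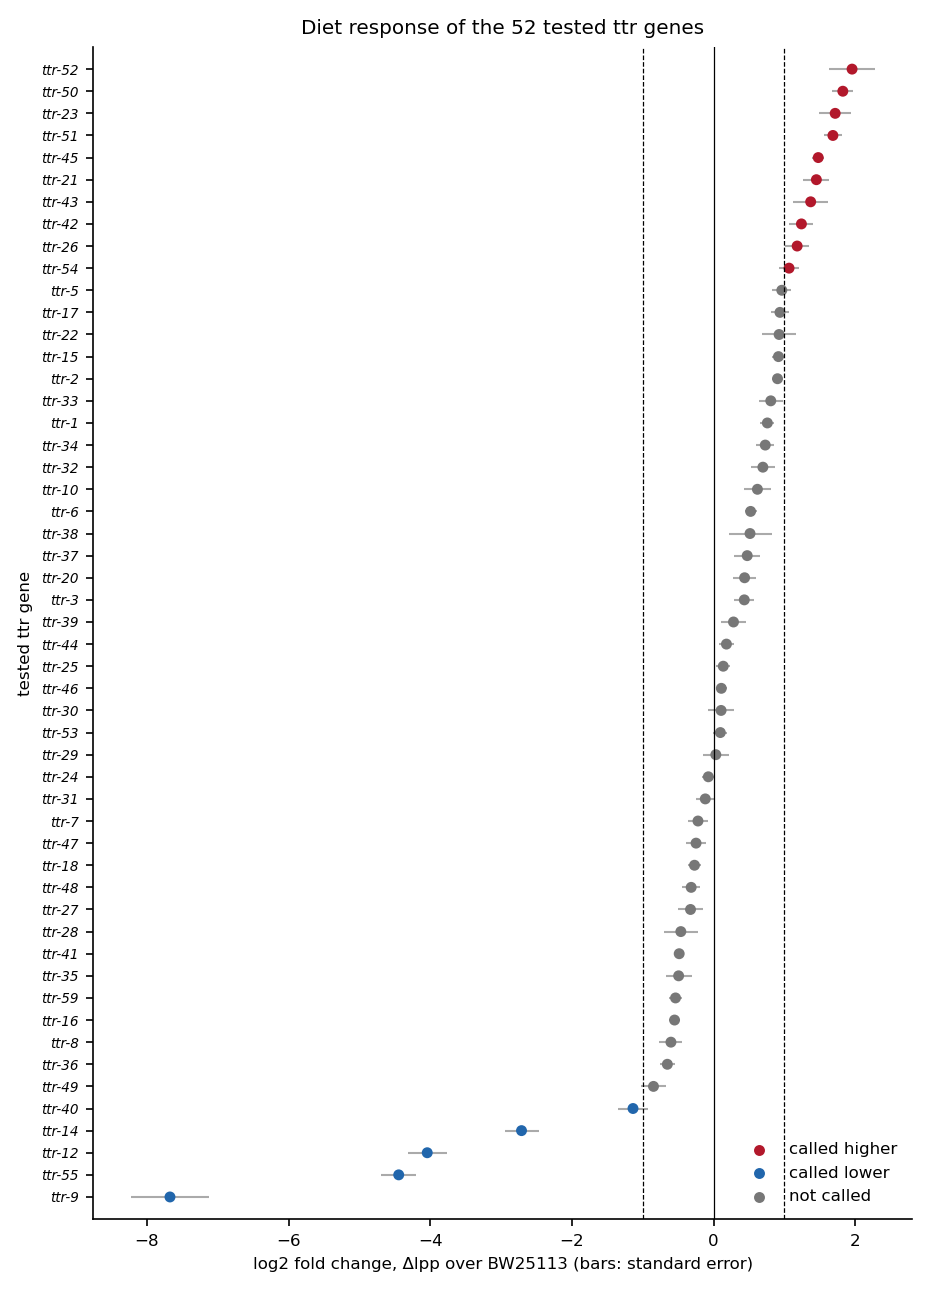
Log2 fold change (Δ*lpp* over BW25113) of the 52 tested *ttr* genes with its standard error, in order of size, dashed lines marking the limit of a call. The 10 members called higher reach 1.95, while the lowest of the 5 called lower, *ttr-9*, has a fitted value of -7.67.

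*ttr-52*, the bridging protein of cell corpse engulfment, was scarce on both diets and had the largest positive fitted value among the members. It lies at III:13404718-13405783 on the plus strand (WBcel235, WBGene00008719). Its level was 0.786 to 2.003 CPM on Δ*lpp*, with a median of 1.17, from 21.29 to 53.61 estimated counts per library. On BW25113 it was 0.159 to 0.606 CPM, with a median of 0.285, from 3 to 11 counts. The lowest Δ*lpp* library, replicate 2, still stood above the highest BW25113 library, replicate 6. The log2 fold change was 1.95 (SE 0.321, adjusted p = 3.49e-05 by edgeR), a 3.88-fold higher level. All 6 Δ*lpp* libraries but only 1 BW25113 library exceeded the minimum of the filter, so *ttr-52* was tested because of the diet where it is high and the filter favoured a rise. The value rests on few reads (1.94 in a fit without the filter), and its counts were not whole in 8 libraries.

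*ttr-33*, the member known from dopaminergic neurons, did not pass the limit on the fold change. Its level was 7.54 to 13.1 CPM on Δ*lpp*, with a median of 11.8, and 4.56 to 8.07 CPM on BW25113, with a median of 6.72. Δ*lpp* replicate 5 lay below BW25113 replicate 1, so the diets overlapped. The log2 fold change was 0.81 (SE 0.167, adjusted p = 0.000359 by edgeR). Its counts were not whole in any of the 12 libraries, and 42 of its exonic bases overlap *txt-5* on the same strand, whose log2 fold change was 0.73.

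*ttr-51* and *ttr-45* are neighbours on chromosome IV, at 13250655-13252311 on the minus strand and 13254225-13255538 on the plus strand, and were the most abundant of the members that rose. *ttr-51* had 331 to 521 CPM on Δ*lpp* (median 443) and 108 to 171 CPM on BW25113 (median 135). *ttr-45* had 297 to 372 CPM on Δ*lpp* (median 329) and 109 to 129 CPM on BW25113 (median 121). For both genes the lowest Δ*lpp* library, replicate 5, was well above the highest BW25113 library. The log2 fold changes were 1.68 for *ttr-51* (SE 0.130, adjusted p = 2.03e-09 by edgeR) and 1.48 for *ttr-45* (SE 0.0863, adjusted p = 4.50e-11). Of the exonic bases of *ttr-51*, 45 lie opposite *JC8.7*, whose log2 fold change was 0.34.

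*ttr-50* (WBGene00010234, IV:11640047-11641015, minus strand) was the other well expressed member with a large rise. It had 73.5 to 114 CPM on Δ*lpp*, with a median of 94.6, and 22.8 to 42.3 CPM on BW25113, with a median of 24.2. BW25113 replicate 3 held the highest value of its group, apart from the other 5 libraries at 22.8 to 25.96 CPM, and it still lay below every Δ*lpp* library. The log2 fold change was 1.82 (SE 0.151, adjusted p = 5.26e-09 by edgeR), and 1.996 without BW25113 replicate 3. Opposite 51 of its exonic bases lies *rbm-17*, which had a log2 fold change of 0.07.

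*ttr-21*, *ttr-26*, *ttr-42* and *ttr-54* rose at moderate levels. *ttr-21* (V:13853834-13854405) had 12.8 to 28.6 CPM on Δ*lpp* (median 23.1) and 5.16 to 10.005 CPM on BW25113 (median 8.16), a log2 fold change of 1.45 (SE 0.182, adjusted p = 1.45e-06 by edgeR). *ttr-26* (V:18558758-18560288) had 23.7 to 40.3 CPM (median 37.2) and 9.28 to 17.7 CPM (median 16.5), a log2 fold change of 1.18 (SE 0.170, adjusted p = 8.10e-06). In both genes the diets were apart in every library, with Δ*lpp* replicate 5 or 6 closest to the BW25113 libraries. *ttr-42* (X:2577742-2578262) had 12.9 to 20.8 CPM (median 15.7) and 5.43 to 10.6 CPM (median 6.23), a log2 fold change of 1.24 (SE 0.169, adjusted p = 3.94e-06). *ttr-54* (IV:10155775-10156771) had 8.88 to 13.98 CPM (median 11.8) and 4.08 to 6.85 CPM (median 5.68), a log2 fold change of 1.06 (SE 0.145, adjusted p = 3.95e-06). These 2 genes were likewise without overlap, and the counts of *ttr-54* were not whole in any library. *ttr-42* shares 52 exonic bases, 10.9% of its length, with *H01M10.1* on the opposite strand, which had a log2 fold change of 1.18, and reads within that stretch cannot be told apart without strand.

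*ttr-23* and *ttr-43* rose at low levels. *ttr-23* (V:10589092-10589860) had 3.30 to 7.68 CPM on Δ*lpp* (median 6.12) and 1.11 to 2.398 CPM on BW25113 (median 1.81), a log2 fold change of 1.72 (SE 0.223, adjusted p = 2.27e-06 by edgeR). *ttr-43* (V:12589633-12590701) had 2.34 to 4.49 CPM (median 3.51) and 0.574 to 1.87 CPM (median 1.39), a log2 fold change of 1.37 (SE 0.247, adjusted p = 9.39e-05). Neither gene overlapped between the diets, although the lowest Δ*lpp* library of *ttr-43* was only a little above the highest BW25113 library. The counts of *ttr-43* were not whole in any of the 12 libraries.

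**Figure D3:**
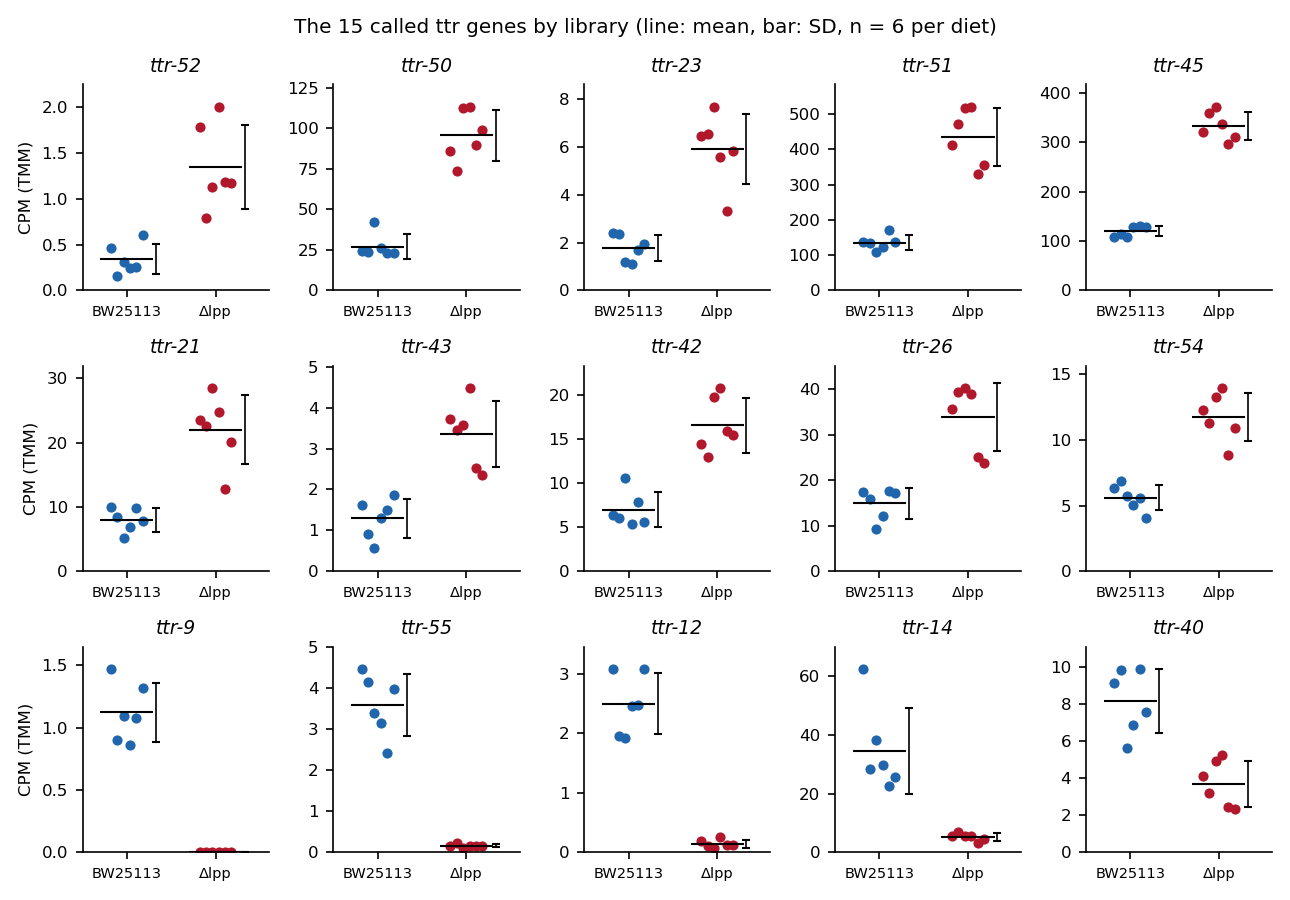
CPM of the 15 called *ttr* genes in each library, with the mean as a line and the SD as a bar (n = 6 per diet), each panel on its own axis from 0. In every panel the Δ*lpp* and BW25113 libraries are apart, and *ttr-9* is at 0 CPM in all 6 Δ*lpp* libraries.

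The members that fell had means over the 12 libraries of 0.562 to 19.9 CPM, the highest being that of *ttr-14*. Of these 5, *ttr-9*, *ttr-12* and *ttr-55* passed the filter only through the BW25113 libraries, where they are high, so they had to differ once they were tested, and their values are a description. *ttr-9* (WBGene00007888, IV:9505543-9506351, minus strand) had 14 to 32 counts in each BW25113 library, or 0.863 to 1.48 CPM with a median of 1.09. No read was counted for it in any Δ*lpp* library. A floor of 3 counts per library, the upper limit that a count of 0 allows, puts its level at least 9.76-fold lower on Δ*lpp* (adjusted p = 3.51e-08 by edgeR), and its fitted value of -7.67 depends on the prior count. Floors and bounds of this kind cover counting error only.

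*ttr-55* and *ttr-12* were nearly absent on the Δ*lpp* diet. *ttr-55* (WBGene00018979, I:6145455-6146477, plus strand) had 3 to 6 counts per Δ*lpp* library, or 0.117 to 0.224 CPM with a median of 0.153, and 47 to 97 counts per BW25113 library, or 2.42 to 4.47 CPM with a median of 3.68. Its log2 fold change was -4.44 (SE 0.244, adjusted p = 1.80e-11 by edgeR). *ttr-12* (WBGene00009759, V:20607777-20608788, minus strand) had 2 to 7 counts per Δ*lpp* library, or 0.0779 to 0.260 CPM with a median of 0.120, and 37 to 67 counts per BW25113 library, or 1.93 to 3.09 CPM with a median of 2.47. Its log2 fold change was -4.04 (SE 0.278, adjusted p = 4.10e-10). Both genes thus lay far apart between the diets in every library.

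*ttr-14*, the longest member (WBGene00011460, X:10787503-10789700, plus strand), was better expressed. It had 3.18 to 6.88 CPM on Δ*lpp*, with a median of 5.57, and 22.5 to 62.5 CPM on BW25113, with a median of 29.1. All BW25113 libraries were above all Δ*lpp* libraries, and BW25113 replicate 1 was the highest. The log2 fold change was -2.71 (SE 0.240, adjusted p = 3.32e-08 by edgeR), and -2.41 without BW25113 replicate 1. Only 90 of its exonic bases, 6.36%, lie opposite another gene, *vap-2*, whose log2 fold change was -0.89.

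*ttr-40* (WBGene00017091, V:9354521-9355471, minus strand) fell by the least. It had 2.34 to 5.23 CPM on Δ*lpp*, with a median of 3.63, and 5.63 to 9.90 CPM on BW25113, with a median of 8.34. The diets came close without overlapping, and the log2 fold change was -1.14 (SE 0.209, adjusted p = 0.000117 by edgeR). The call was lost with library size alone (log2 fold change -0.69) and on the TPM scales (-0.47 on log2(TPM + 1), -0.52 on log2(TPM + 0.1)). The counts of this gene too were not whole in any library.

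Markers of other cells and stages moved between the diets too, where 12.1% of all tested genes were called higher and 15.6% lower. Of 12 sperm markers 8 were tested and all 8 fell, with a median log2 fold change of -5.75, and their summed level was 2.66 to 6.74 CPM on Δ*lpp* and 164 to 288 CPM on BW25113. Of the 8, *spe-9* and *spe-11* passed the filter only through BW25113, so their fall was fixed by it. *msp-10* and *msp-19* were at 0 in all 12 libraries. Of 16 molting and apical matrix markers 9 fell (median -1.12), with sums of 1006 to 1205 CPM on Δ*lpp* and 2005 to 3785 CPM on BW25113. Body wall muscle markers fell in 8 of 9 (median -1.34, sums of 5233 to 6647 and 13034 to 19199 CPM), and intestine markers in 5 of 10 (median -1.09, sums of 1641 to 2005 and 3776 to 4470 CPM). Neuron markers rose in 2 of 12 (median 0.66, sums of 896 to 1135 and 540 to 818 CPM). Of 9 tested glia markers (10 in the list) 1 rose and 2 fell (median -0.59, sums of 72.7 to 79.4 and 84.5 to 109 CPM). On adjusted p alone all 12 neuron markers were higher (32.9% of all tested genes were). All 16 molting, all 9 muscle and 9 of 10 intestine markers were lower (32.3% of all tested genes were), and glia markers were 1 higher and 5 lower. In the oocyte and eggshell list 1 of 12 rose (median 0.34, sums of 9241 to 13045 and 4932 to 10007 CPM). In the pharynx list 1 of 6 rose (median 0.55, sums of 954 to 1172 and 727 to 1216 CPM). On adjusted p alone 6 oocyte and eggshell markers and 4 pharynx markers were higher, and 0 of either list were lower. Of 9 early embryo markers 5 were tested and 3 rose (median 1.02, sums of 9.50 to 12.6 and 3.04 to 11.1 CPM), with *sdz-23* at 0 in all BW25113 libraries, while the yolk protein genes split (sums of 38550 to 72758 and 30964 to 67746 CPM). *vit-1*, *vit-3* and *vit-4* fell. Their highest Δ*lpp* library stood far above the Δ*lpp* median, at 863 against 166 CPM, 4143 against 418 CPM and 3498 against 290 CPM. In *vit-3* and *vit-4* it lay within the BW25113 range (3273 to 7862 and 3440 to 7990 CPM), so the diets overlapped. *vit-2* (log2 fold change 0.82), *vit-5* (0.55) and *vit-6* (0.25) had positive values under the limit, *vit-2* and *vit-5* passing on adjusted p alone. In whole worms fewer cells of a type and less RNA per cell cannot be told apart. Whether the worms of both diets were collected at the same stage is not given in the sources used here. The part of these marker changes in the values of the *ttr* genes was not tested.

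Several members lay close to the limit on the fold change. Just inside it were *ttr-54*, *ttr-40* and *ttr-26*, given above. Just outside were *ttr-5* with a log2 fold change of 0.96 (SE 0.134, adjusted p = 4.99e-06 by edgeR), *ttr-17* with 0.94 (SE 0.126, adjusted p = 3.57e-06) and *ttr-22* with 0.92 (SE 0.243, adjusted p = 0.00281). *ttr-5* had 24.003 to 38.5 CPM on Δ*lpp* (median 33.7) and 12.9 to 21.4 CPM on BW25113 (median 16.4). *ttr-17* had 48.0 to 77.4 CPM (median 65.6) and 28.5 to 44.1 CPM (median 32.4). These 2 genes did not overlap between the diets. *ttr-22*, with 2.75 to 5.22 CPM (median 3.89) and 0.835 to 3.41 CPM (median 2.07), did overlap. Without BW25113 replicate 1, *ttr-5*, *ttr-17*, *ttr-22* and *ttr-15* passed the limit, with log2 fold changes of 1.08, 1.06, 1.16 and 1.02. Without Δ*lpp* replicate 5, *ttr-5* (1.04), *ttr-17* (1.01) and *ttr-22* (1.01) passed it, and *ttr-5* also without BW25113 replicate 5 (1.03) or replicate 6 (1.003).

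The other abundant members changed by less than the limit under TMM. *ttr-15* had 320 to 380 CPM on Δ*lpp* (median 351) and 167 to 233 CPM on BW25113 (median 181), a log2 fold change of 0.92 (SE 0.0921, adjusted p = 7.98e-08 by edgeR). *ttr-2* had 143 to 181 CPM (median 165) and 80.1 to 102 CPM (median 85.3), a log2 fold change of 0.90 (SE 0.0839, adjusted p = 2.72e-08). Both were higher in every Δ*lpp* library, and both passed the limit with library size alone (1.35 for each) and on log2(TPM + 1) (1.48 for *ttr-15*, 1.44 for *ttr-2*), *ttr-15* also with upper quartile factors (1.01). *ttr-16* had 211 to 244 CPM (median 234) and 312 to 365 CPM (median 349), a log2 fold change of -0.55 (SE 0.0762, adjusted p = 4.79e-06). *ttr-41* had 65.5 to 80.6 CPM (median 74.2) and 99.0 to 109 CPM (median 104.5), a log2 fold change of -0.49 (SE 0.0742, adjusted p = 1.54e-05). Both were lower in every Δ*lpp* library under TMM, but this direction depends on the scaling. With library size alone their log2 fold changes were -0.11 and -0.04, and on log2(TPM + 1) they were -0.0021 and 0.06, the latter of the opposite sign. *ttr-16* also has the widest overlap among the abundant members, with 209 exonic bases (40.7%) opposite *lin-3*, whose log2 fold change was 0.04. The counts of *ttr-2*, *ttr-15* and *ttr-16* were not whole in any library.

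Among the 37 tested members that were not called, log2 fold changes ran from -0.85 (*ttr-49*) to 0.96 (*ttr-5*), and 23 of them passed on adjusted p alone, 14 higher and 9 lower. Taken over all 52, 32 values were positive and 20 negative under TMM. This split depends on the scaling. It was 39 and 13 with library size alone, and 43 and 9 on both TPM scales. The spread between libraries of a diet was similar on both sides, with a median coefficient of variation of 16.0% on Δ*lpp* and 20.6% on BW25113.

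The remaining 6 members were too scarce to test and are given as counts per library. *ttr-11* had 0 counts in every Δ*lpp* library and 1 to 8 on BW25113. *ttr-56* had 0 to 1 counts on Δ*lpp* and 6 to 14 on BW25113. Its mean CPM on BW25113 was 4.71-fold the floor of 3 counts per library on Δ*lpp*. That floor holds for a count of 0, so it gives no bound where 1 read was counted. *ttr-58* had 0 to 2 counts on Δ*lpp* and 0 to 11 on BW25113. The diets did not overlap in *ttr-11* and *ttr-56*, and they did in *ttr-58*. *ttr-13* had 0 to 3 and 0 to 6 counts, *ttr-57* had 0 to 2 and 0 to 5 counts, and *ttr-19*, the only member of the 6 with its higher values on Δ*lpp*, had 2 to 18 and 0 to 12 counts. The diets overlapped in these 3 genes. In a fit without the filter, 4 of the 6 were called lower. Their adjusted p by edgeR was 0.000112 for *ttr-11*, 2.99e-07 for *ttr-56*, 0.000431 for *ttr-58* and 0.0301 for *ttr-13*. *ttr-57* (0.177) and *ttr-19* (0.0568) were not called. In that fit 9 of all 58 members were called lower, beside 3152 of 21506 genes, so the family was close to the background.

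Neighbouring members often differed in their response. Of the 12 groups of neighbours, 10 had at least 2 tested members, and in 5 of these all members changed in the same direction under TMM. *ttr-51* and *ttr-45* (1.68 and 1.48), and *ttr-3*, *ttr-2* and *ttr-1* (0.43, 0.90 and 0.76), lay close together in log2 fold change, as did *ttr-40* and *ttr-49* on the lower side (-1.14 and -0.85). The counts of *ttr-3*, *ttr-2*, *ttr-1*, *ttr-40* and *ttr-49* were not whole in any library, while those of *ttr-51* and *ttr-45* were whole in all. Whether reads divided between features bring neighbours closer was not tested. In 3 groups the members were more than 1 apart in log2 fold change. *ttr-16* (-0.55) lies beside *ttr-17* (0.94) on the same strand, *ttr-8* (-0.60) lies close to *ttr-32* (0.70) on the opposite strand, and *ttr-24* and *ttr-25* (-0.07 and 0.14) lie beside *ttr-26* (1.18).

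**Figure D4:**
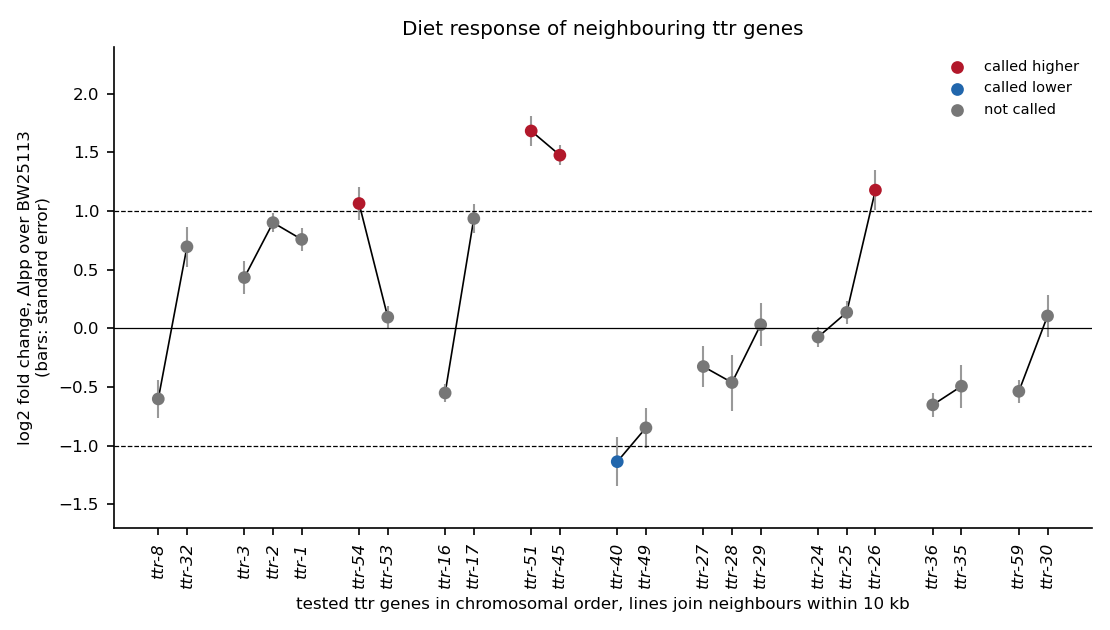
Log2 fold change (Δ*lpp* over BW25113) with its standard error of tested *ttr* genes that lie within 10000 bases of each other, lines joining the members of each of the 10 groups with at least 2 tested members. *ttr-51* and *ttr-45* are both called higher (1.68 and 1.48), while *ttr-16* (-0.55) and *ttr-17* (0.94) go opposite ways.

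Some scarce members also lay together. The neighbours *ttr-55*, *ttr-56* and *ttr-58* on chromosome I (6145455-6148836) had their highest counts on BW25113, and so had *ttr-11*, *ttr-57* and *ttr-12* on chromosome V (20603314-20608788). In each group only 1 member, *ttr-55* or *ttr-12*, had enough counts to be tested. *ttr-55* and *ttr-56* share 17 exonic bases on the same strand.

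Genes that act in the recognition and engulfment of dying cells, the pathway of TTR-52, are given beside it. All 20 genes of this list were tested, and 1 rose, where 12.1% of all tested genes did. None passed the limit on the lower side by edgeR or by DESeq2 (1, *wah-1*, was lower at an unadjusted p under 0.05), where 15.6% of all tested genes fell, and the median log2 fold change was 0.08. *ced-12*, part of the module that activates the GTPase CED-10 in the engulfing cell, had 14.1 to 27.1 CPM on Δ*lpp* (median 24.7) and 3.88 to 17.0 CPM on BW25113 (median 9.37), with overlap, and a log2 fold change of 1.15 (SE 0.370, adjusted p = 0.0154 by edgeR). On adjusted p alone 8 of the 20 were higher and 1 lower, beside 32.9% and 32.3% of all tested genes. *ced-1*, the engulfment receptor that TTR-52 binds, had 124 to 144 CPM on Δ*lpp* (median 133) and 79.9 to 115 CPM on BW25113 (median 97.5), a log2 fold change of 0.46 (SE 0.0858, adjusted p = 0.000141). Its adaptor *ced-6* had a log2 fold change of 0.47 (SE 0.0864, adjusted p = 0.000114). For genes of phosphatidylserine exposure the values went both ways. *scrm-1*, a scramblase, had a log2 fold change of 0.84 (SE 0.0960, adjusted p = 4.50e-07), and *wah-1*, the worm homologue of apoptosis-inducing factor, had -0.69 (SE 0.0675, adjusted p = 5.09e-08). Also on the list were *ced-8*, with 0.77 (SE 0.228, adjusted p = 0.00662 by edgeR), and *tat-1*, with -0.15 (adjusted p = 0.0983). The ABC transporter *ced-7* (-0.14), the secreted lipid-binding protein gene *nrf-5* (-0.13) and the phosphatidylserine receptor gene *psr-1* (-0.01) did not pass the test.

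Outside the *ttr* names, the table holds a pair of genes related to transthyretin that resemble 5-hydroxyisourate hydrolase, an enzyme of urate breakdown. *R09H10.3* had 20.5 to 25.7 CPM on Δ*lpp* (median 22.3) and 30.2 to 38.1 CPM on BW25113 (median 34.5), without overlap. Its log2 fold change was -0.61 (SE 0.0938, adjusted p = 1.75e-05 by edgeR), under the limit of a call. *ZK697.8* had at most 4 counts in a Δ*lpp* library and at most 1 in a BW25113 library and was not tested.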

How the data were processed

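The authors extracted RNA from whole worms, removed ribosomal RNA, filtered paired reads with Seqtk, aligned them with HISAT2 (the submitters' processing notes name the build WBcel235), used Stringtie to count the fragments of each gene and RNAnorm to obtain TPM. Versions, annotation release and strand setting are not given in the sources used here. The deposited table holds estimated counts, not normalized, of which 8.97% are not whole, and the authors' TPM, scaled for gene length and library total. The authors' mean TPM per diet was not used. No per-library column was left unused (0).

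Groups and replicate numbers came from the sample labels. Estimated counts were rounded and tested with edgeR 4.0.16 in R 4.3.3: filterByExpr (minimum count 10, minimum total 15), TMM and the robust quasi-likelihood test with no covariate, adjusted over all 15266 tested genes (Benjamini-Hochberg). A call required adjusted p below 0.05 together with at least a 2-fold difference (log2 fold change beyond 1 in either direction). A count of 0 was bounded at 3 counts per library (0.111 to 0.185 CPM). TPM sums are descriptions without a test. Pairs of libraries within a diet differed by more than sampling noise (chi-square per degree of freedom 4.52 to 72.4).

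Alternatives were DESeq2 1.42.0, RLE factors, upper quartile factors, library size only, no filter, at least 10 counts in every library, a block for replicate number, limma 3.58.1 with a pseudocount of 1 or 0.1 TPM before the log2, and each library left out. The procedure was tested on simulated data with changes drawn evenly in both directions and no shift in scaling between the diets. That test therefore could not address how the results depend on the scaling. Tables were made with pandas 2.3.3 and numpy 2.4.6 in Python 3.11.15, plots with matplotlib 3.10.9. Positions come from Ensembl's WBcel235 gene models, which held all 46926 IDs.

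Members named with values are those called, the 6 with the highest mean TPM, *ttr-52* and *ttr-33*, and the 3 nearest the fold limit on each side. Others named, and the list genes given with values, were chosen after their values were seen. The members and lists were chosen with earlier results of these data known.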

Additional observations from a re-analysis of the deposited data

Results flagged for a closer look

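Dixon's test was applied to the 6 libraries of each diet for 48 groups of values (each named *ttr* gene in CPM and the summed TPM), and 3 groups had a library far from the others. Chance alone flags about 1 in 20 such groups. *ttr-15* in BW25113 replicate 1 was at 233 CPM, with the other BW25113 libraries between 167 and 187 CPM, so the gap took up 0.706 of the range. BW25113 replicate 1 also held the highest summed TPM of the family in its group, 4766 against 3307 to 3821 in the other 5 libraries (0.648 of the range). *ttr-50* in BW25113 replicate 3 was at 42.3 CPM, with the others between 22.8 and 25.96 CPM (0.839 of the range). Each of these values lay below every Δ*lpp* library of the same gene or sum.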

How the results depend on the processing

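The 10 higher and 5 lower calls were the same 15 with DESeq2, with RLE factors and with the replicate number as a block. The count of members called higher moved to 20 with library sizes alone, to 21 with log2(TPM + 1) and to 23 with log2(TPM + 0.1), and the median log2 fold change from 0.23 to 0.67, 0.72 and 0.80, while the median of all genes moved to 0.50, 0.51 and 0.64. With no filter on low counts the median was 0.10 for the members and 0.11 for all genes. The count called lower was then 9 of 58, where 3152 of all 21506 genes were. It was 2 with at least 10 counts in every library (9.50% of all genes so filtered), which leaves 47 members tested and removes the scarce ones. In the engulfment list of 20 genes the count called higher was 0 with the replicate block (*ced-12* is not called). It was 4 with library sizes alone (24.4% of all genes), 5 with a pseudocount of 1 TPM (17.3%) and 7 with 0.1 TPM (29.9%). The ratio of the summed levels was 2.05 in TPM and 1.40 in CPM. Among the 23 named members *ttr-41* alone reversed, to 0.055 on both TPM scales. Over all 52 tested members, negative values numbered 20 under TMM, 13 with library sizes alone and 9 on both TPM scales. Other members thus changed sign too.

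Leaving out each library in turn gave 10 to 14 members called higher, 5 to 5 called lower and a median of 0.18 to 0.39. The highest counts were 14 without BW25113 replicate 1 and 13 without Δ*lpp* replicate 5. Of all 15266 tested genes 2198 and 1917 were called higher there, beside 1849 with every library kept. In the engulfment list 1 to 1 were called higher and 0 to 0 lower. Among the 23 named members, 1 call (*ttr-40*) was lost and 6 were gained under at least 1 alternative. Libraries with the same replicate number did not deviate together (correlations of -0.17 to 0.33), so the numbers do not pair the libraries. The causes of these shifts were not tested.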

Other observations

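Libraries of the same diet differed in the level of many *ttr* genes at once. Of the 52 tested members, 25 had their lowest Δ*lpp* value in replicate 5 and 10 in replicate 6. In the BW25113 group 26 members were lowest in replicate 3 and 28 were highest in replicate 1. The deviation of the members from their diet's mean was taken on log2(CPM + 0.5). Its median was -0.18 in Δ*lpp* replicate 5, -0.23 in BW25113 replicate 3 and 0.24 in BW25113 replicate 1, beside 0.01, 0.02 and 0.04 for all tested genes. Medians of similar size were found in Δ*lpp* replicate 3 (0.18), Δ*lpp* replicate 4 (0.16) and BW25113 replicate 4 (-0.16), beside 0.04, 0.002 and 0.02 for all tested genes. In the first pair the neuron markers deviated by -0.18 and -0.38 and the pharynx markers by -0.24 and -0.30, while the muscle markers deviated by 0.14 and -0.26, the molting markers by 0.05 and -0.58 and the intestine markers by 0.03 and -0.13. In BW25113 replicate 1 the neuron markers deviated by 0.11, molting by 0.12, intestine by -0.03, pharynx by -0.05 and muscle by -0.27. The marker lists thus moved in both directions in Δ*lpp* replicate 5 and BW25113 replicate 1. In BW25113 replicate 3 all of these lists were lower, as the *ttr* members were. Whether these deviations are related was not tested.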
